A study of Mus musculus with 27 samples.

Results

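The transcription factor genes Gata4, Gata5, Gata6, Sox7 and Hnf4a were followed in differentiating mouse embryonic stem cells. They were chosen by symbol as factors of the extraembryonic endoderm, and all 5 were found among the 51826 gene identifiers of the count files. RNA came from the E14 embryonic stem cell line (wild type) and from a Quaking KO and a Sam68 KO on that E14 background, with 3 replicates of each at days 0, 3 and 10, 27 libraries in 9 groups. Quaking (gene Qk) and Sam68 (gene Khdrbs1) are RNA-binding proteins of the STAR family. Day 0 cells are labelled as stem cells, and the labels' protocol names the differentiated samples embryoid bodies, aggregates in which stem cells form several lineages at once. The labels name 1 line per knockout and give no number of clones, so the line and the deleted gene cannot be told apart.

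The extraembryonic endoderm lines the yolk sac and supplies the early embryo with nutrients and patterning signals. It begins in the blastocyst as primitive endoderm, in which FGF signalling favours Gata6 over the pluripotency factor Nanog, and Gata4, Sox17 and Sox7 follow. Primitive endoderm then gives visceral endoderm, where Hnf4a drives genes of lipid and serum protein transport, and parietal endoderm, which lays down basement membrane. Gata4, Gata5 and Gata6 are also heart factors, and Sox7 is also active in endothelium, so in mixed embryoid bodies their transcripts do not mark a single tissue.

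All positions are on mouse build GRCm38. Gata4 (ENSMUSG00000021944) lies at chr14:63198922-63271692 on the minus strand, and Sox7 (ENSMUSG00000063060) at chr14:63943673-63950732 on the plus strand of the same chromosome. Hnf4a (ENSMUSG00000017950) occupies chr2:163506808-163572910 on the plus strand and Gata5 (ENSMUSG00000015627) chr2:180325133-180334699 on the minus strand. All 5 are annotated as protein-coding genes. An antisense gene, Gata5os, covers 7.87% of the exon bases of Gata5 and had 0 to 7 counts per library. The antisense gene Hnf4aos overlaps no exon of Hnf4a. No source used here gives the strand setting of the counting, so reads from overlapping antisense pairs cannot be told apart.

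RefSeq promoters were matched for Gata5, the factor that was close to silent until day 3, and for Hnf4a, the factor that differed from wild type in both lines on every day. Below are the 250 bases before each start (RefSeq, GRCm38.p6), 5′ to 3′ on the strand of the gene, with a GATA word in capitals. They show what precedes the upstream of the annotated Hnf4a starts at chr2:163506607-163506856, and the Gata5 start at chr2:180334680-180334929.
Hnf4a upstream start: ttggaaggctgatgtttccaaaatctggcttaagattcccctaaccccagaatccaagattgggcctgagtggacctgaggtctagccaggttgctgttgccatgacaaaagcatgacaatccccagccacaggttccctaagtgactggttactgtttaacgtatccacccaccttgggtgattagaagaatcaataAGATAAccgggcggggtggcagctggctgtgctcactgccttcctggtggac
Gata5: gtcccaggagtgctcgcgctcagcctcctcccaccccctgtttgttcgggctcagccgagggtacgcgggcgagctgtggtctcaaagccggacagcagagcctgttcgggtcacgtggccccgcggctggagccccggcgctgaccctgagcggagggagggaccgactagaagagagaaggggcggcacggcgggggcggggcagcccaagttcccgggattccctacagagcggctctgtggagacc

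Short words were searched on both strands, of which those below are described, for Gata5 and the upstream Hnf4a start. For GATA factors the words searched were AGATAA with the related word TGATAA, then AGATAG with the related word TGATAG. At least 1 of them occurred in 26.5% of the 32851 RefSeq promoters of this length. One match stood in the upstream Hnf4a promoter, from base -52 to -47 before the RefSeq start. That start lies inside the Hnf4a gene as placed above, and the match spans the first base of the gene. The Gata5 window likewise includes the first bases of its gene. For SOX factors the word AACAAT or the longer word AACAAAG was in 13.8% of promoters. For HNF4 the word CAAAGTCCA or the word CAAAGGTCA was in 0.807%. Neither set occurred in these promoters. The Gata5 promoter held none of these words; 70.0% of its bases were G or C against a median of 52.4%, and it held 22 CpG. Counts are per gene, so transcripts from all Hnf4a starts are summed, and a match is a description of letters only.

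The labels describe the replicates as biological, and libraries held 56461674 to 77257496 counts. Levels are given in CPM, the usual depth-normalised count, after TMM scaling over the 27 libraries, as the mean ± SD of the 3 libraries of a group (n = 3). Changes were tested by quasi-likelihood in edgeR, adjusted by Benjamini-Hochberg over all genes tested, and called where the adjusted p was below 0.05. Fold changes are relative to the bulk of genes: with library totals in place of TMM the median of all genes moved by over 0.1 on the log2 scale in 9 of 22 comparisons, by -0.24 to 0.24. As a check of the labels, Qk was at 150 to 168 CPM in the Quaking KO libraries and 231 to 239 CPM in wild type at day 0. It was at 112 to 124 against 217 to 230 CPM at day 3, and at 199 to 211 against 251 to 282 CPM at day 10. Khdrbs1 was at 88.8 to 97.4 CPM in the libraries labelled Sam68 KO against 97.7 to 101 CPM in wild type at day 0, with an adjusted p of 0.58. The ranges were 91.6 to 106 against 151 to 166 CPM at day 3, and 97.9 to 101 against 98.0 to 146 CPM at day 10. Khdrbs1 was also lower in the Quaking KO at day 0, at 69.2 to 76.8 CPM (-0.43 ± 0.04, adjusted p = 7.4e-08), below the Sam68-labelled libraries, and Qk was lower in the Sam68-labelled line at day 3 (-0.30 ± 0.04, adjusted p = 1.8e-05). A whole-gene count does not show a small deletion, and among the 3 days Khdrbs1 was called lower in the libraries labelled Sam68 KO at day 3 only, so these libraries are called Sam68-labelled throughout. The labels give them a separate run of library numbers, so that a batch of libraries cannot be told apart from the label. Summed over 11 pluripotency factors, day 0 libraries held 3790 to 3997 CPM in wild type, and all 11 fell by day 10.

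In wild type the heart and endoderm factor Gata4 rose in both intervals, Gata5 and Gata6 rose between day 3 and day 10, and Sox7 dipped before it rose. Of the 5 factors 2 rose and 1 fell from day 0 to day 3, a comparison in which 60.9% of all tested genes were called, 30.8% higher and 30.1% lower. All 5 rose from day 3 to day 10, when 76.1% of genes were called, 39.6% higher and 36.5% lower. All 5 stood higher at day 10 than at day 0, when 80.8% were called, 41.4% higher and 39.4% lower. Gata5 passed the filter on low counts here only through its day 10 libraries, so its calls as higher add no support. Shares this high mean that the calls alone say little about the 5 genes, and the sizes carry the description.

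Gata4 stood at 14.7, 14.7 and 14.6 CPM in the wild-type libraries of day 0, at 22.7, 25.0 and 25.3 CPM at day 3 and at 159, 159 and 146 CPM at day 10. The days did not overlap, and the rise was 0.76 ± 0.06 (log2 fold change ± SE) to day 3 and a further 2.68 ± 0.06 to day 10, with adjusted p of 1.7e-07 and 5.0e-13. Gata6, the first of the primitive endoderm factors, was at 9.23, 8.61 and 8.43 CPM at day 0 and at 6.25, 10.5 and 8.15 CPM at day 3. These groups overlapped, and the change was -0.05 with a 95% interval of -0.34 to 0.25; its sign turned with library totals (0.052). By day 10 Gata6 reached 113, 134 and 142 CPM, a 15.7-fold rise over day 3 (3.97 ± 0.15, adjusted p = 4.8e-11).

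Gata5, which acts in heart and gut endoderm, was close to silent until day 3. Over the 3 wild-type libraries it had 10 counts in all at day 0 and 9 at day 3, or 0.0163 to 0.0976 CPM and 0.0154 to 0.0739 CPM. At day 10 the libraries held 14.7, 14.9 and 14.1 CPM, 3323 counts in all. The ratio of day 10 to day 0 was 266 with a 95% counting interval of 145 to 556, where the interval covers counting error only. The fitted change over the same days was 8.04 ± 0.23 on the log2 scale, and 8.73 without wild-type replicate 2 of day 0, which held the most counts.

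Sox7, a SOXF factor of endoderm and endothelium, was at 11.5, 10.7 and 10.4 CPM at day 0, at 4.92, 5.15 and 5.51 CPM at day 3 and at 19.6, 15.7 and 15.5 CPM at day 10. It fell 2.05-fold and then rose 3.27-fold (adjusted p = 7.9e-07 and 2.5e-09), with no overlap between days. Hnf4a, a nuclear receptor of visceral endoderm and liver, was at 3.00, 2.86 and 3.25 CPM at day 0 and at 3.90, 4.45 and 4.86 CPM at day 3. Day 10 libraries held 38.9, 39.1 and 32.6 CPM. The successive rises were 0.57 ± 0.11 and 3.07 ± 0.10 (adjusted p = 0.00046 and 8.5e-12).

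**Figure D1:**
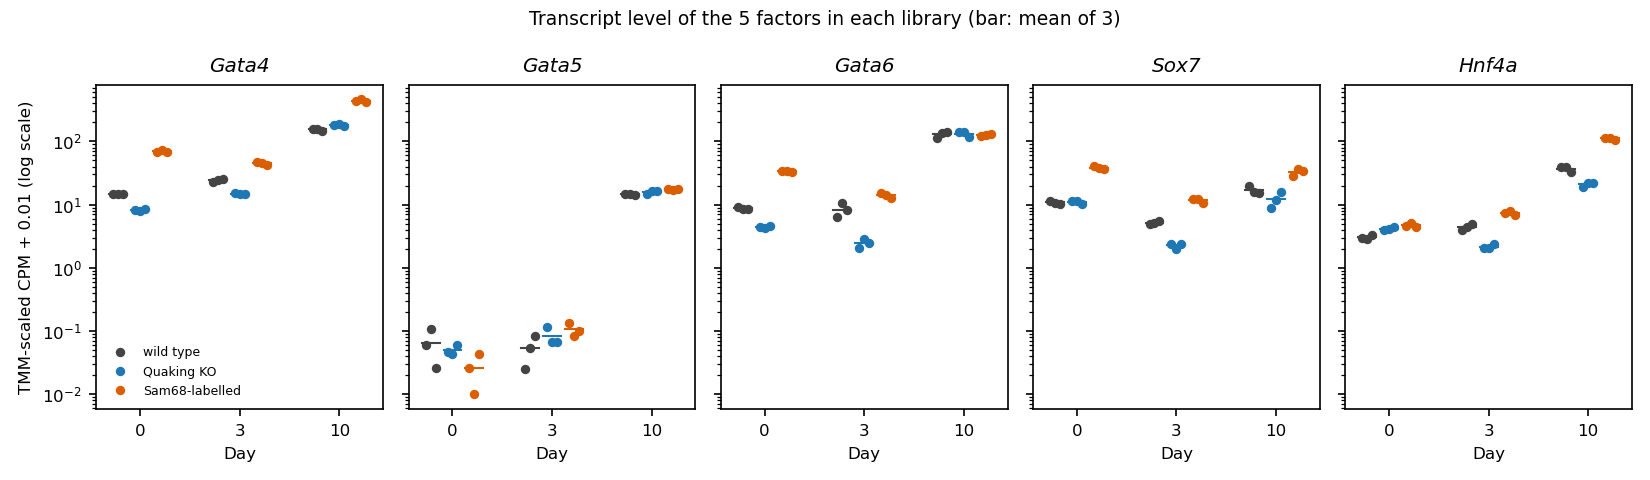
TMM-scaled CPM plus 0.01 on a log axis for each factor at days 0, 3 and 10; each point is 1 library and each bar the mean of the 3 libraries of a line. Gata5 reaches at most 0.127 CPM until day 3 and at least 14.1 CPM at day 10 in every line, and the Sam68-labelled libraries lie above the others for Gata4, Gata6 and Sox7 at days 0 and 3.

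The lists of genes that accompany these factors moved with them in wild type. The primitive, visceral and parietal endoderm lists share genes, among them Dab2, Cubn and Lama1, so their counts here and below are not separate results. Of 15 primitive endoderm genes 13 rose and 1 fell from day 0 to day 10, with a median log2 fold change of 2.98 against 0.01 over all genes. Among them were Dab2, an endocytic adaptor (10.5 ± 0.229 to 204 ± 27 CPM), and Col4a1, a basement membrane collagen. Of 23 tested visceral endoderm genes 21 rose (median 5.10), with transthyretin, Ttr, reaching 141 ± 12.2 CPM and Apob, the main lipoprotein protein, going from 2.96 ± 0.138 to 1448 ± 297 CPM. Parietal endoderm genes rose in 16 of 17 cases (median 2.88). The heart list moved as well: 21 of 22 cardiac genes rose (median 7.41), and the summed heart list went from 35.4 to 38.3 CPM, with no count of Nppa or Pln, to 1877 to 2015 CPM.

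Before differentiation the Quaking KO had lower Gata4 and Gata6 and higher Hnf4a than wild type. At day 3 the 4 tested factors were lower, and at day 10 Hnf4a alone was called. In fresh stem cells at day 0, 3 of the 4 tested factors were called, 2 lower and 1 higher, where 39.7% of all genes were called, 19.4% higher and 20.3% lower. Gata5 did not pass the filter on low counts at days 0 and 3 in these comparisons. In day 3 embryoid bodies, 4 of 4 tested factors were lower, where 7.01% of genes were called, 3.08% higher and 3.93% lower. The count of genes called there was 1381, and 2433 in a fit of these 6 libraries blocked by replicate, which also called the 4 factors. At day 10, 1 of 5 was called, where 11.7% of genes were, 4.96% higher and 6.71% lower.

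At day 0 the Quaking KO libraries held 8.36, 7.85 and 8.60 CPM of Gata4, below each of the wild-type values of 14.6 to 14.7 CPM. The difference was -0.84 ± 0.05 on the log2 scale, 1.79-fold lower (adjusted p = 1.7e-10). Gata6 was at 4.43, 4.25 and 4.65 CPM against 8.43 to 9.23 CPM in wild type, 1.99-fold lower (-0.99 ± 0.06, adjusted p = 4.5e-10). Neither gene overlapped between the lines. Sox7, at 11.4, 11.3 and 10.3 CPM against 10.4 to 11.5 CPM, overlapped and differed by 0.01 with a 95% interval of -0.12 to 0.13; the sign turned with library totals (-0.022). Hnf4a went the other way, at 3.99, 4.08 and 4.48 CPM against 2.86 to 3.25 CPM, 1.37-fold higher (0.45 ± 0.09, adjusted p = 0.00066).

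Day 0 genes of primitive and visceral endoderm were also mostly lower in the Quaking KO, but lower genes were not confined to this lineage. Of 9 tested definitive endoderm genes 5 were lower and none higher (median -0.29). Of 16 tested endothelial genes 7 were lower and 3 higher (median -0.20), and of 16 tested cardiac genes 4 were lower and 6 higher (median 0.26). Of 15 primitive endoderm genes 10 were lower, 3 higher and 2 not called, with a median of -0.54 against 0.00 over all genes. Lrp2, a scavenger receptor of the yolk sac, was at 191 ± 6.83 against 301 ± 9.42 CPM (-0.67 ± 0.03), while the laminin chain Lamc1 was higher (0.34 ± 0.04). Of 17 tested visceral endoderm genes 11 were lower and none was higher (median -0.45), and Dab2 was at 5.63 ± 0.594 against 10.5 ± 0.229 CPM. Parietal endoderm genes split, with 6 higher and 8 lower of 17: the linker protein Nid1 was higher (258 ± 14.2 against 167 ± 3.74 CPM) and the keratin Krt18 lower (12.2 ± 0.398 against 25.6 ± 2.02 CPM). Sox17, another SOXF factor of this lineage, was lower (-1.15 ± 0.13, adjusted p = 1.2e-06), unlike Sox7. In the same libraries 9 of 11 pluripotency factors were higher and none lower, and the summed level was 4697 to 4863 CPM against 3790 to 3997 CPM; its part in the lower Gata4 and Gata6 was not tested. In bulk RNA, fewer cells of a type and less RNA per cell cannot be told apart.

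Among the FGF and ERK genes that feed primitive endoderm choice, 6 of 13 were lower and 2 higher at day 0 in the Quaking KO, with a median of -0.02. The receptor Fgfr2 was lower by the most among those named (-1.63 ± 0.06, adjusted p = 5.0e-13), with the ERK phosphatase Dusp6 at -0.63 ± 0.03, while the ligand Fgf4 was higher (0.15 ± 0.03). Of 5 other GATA and FOG genes, Gata2 (-0.56 ± 0.10) and the cofactor Zfpm2 (-1.70 ± 0.51) were lower. Of 8 tested liver-enriched factors, Cebpa (-1.04 ± 0.16) and Foxa2 (-0.80 ± 0.15) were lower.

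By day 3 the deficit in the Quaking KO covered Gata4, Gata6, Sox7 and Hnf4a. Gata4 was at 15.1, 14.5 and 14.7 CPM against 22.7 to 25.3 CPM in wild type, 1.65-fold lower (-0.72 ± 0.06, adjusted p = 8.4e-07). Gata6 was at 2.02, 2.81 and 2.46 CPM against 6.25 to 10.5 CPM, 3.42-fold lower (-1.77 ± 0.16, adjusted p = 4.3e-06). Sox7 was at 2.40, 2.00 and 2.41 CPM against 4.92 to 5.51 CPM, 2.29-fold lower (-1.20 ± 0.10, adjusted p = 2.1e-06). The lines did not overlap in any of these genes. Hnf4a, higher at day 0, was now at 2.03, 2.02 and 2.39 CPM against 3.90 to 4.86 CPM, 2.06-fold lower (-1.04 ± 0.11, adjusted p = 2.7e-05). Gata5 had 15 counts in all against 9 in wild type, too few for a fold.

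At this day 13 of 15 primitive endoderm genes were lower in the Quaking KO and none was higher, with a median of -0.96 against 0.01 over all genes. Col4a1 was at 116 ± 8.69 against 257 ± 5.90 CPM, and the laminin chain Lama1 at 42.5 ± 5.76 against 108 ± 1.26 CPM. Of 21 tested visceral endoderm genes 13 were lower and none higher (median -0.67), led by the vitamin B12 receptor Cubn at 87.1 ± 10.1 against 199 ± 10.5 CPM. Parietal endoderm genes were lower in 8 of 17 cases (median -0.30). Lower genes were not confined to these lists. Of 12 tested definitive endoderm genes 3 were lower, with a median of -0.42, below that of the parietal list. Of 15 tested endothelial genes 5 were lower and 1 higher (median -0.07). Of 14 tested cardiac genes 2 were lower (median -0.17), and of 13 FGF and ERK genes 2 were lower (Etv5 -0.25 ± 0.04 and Etv4 -0.36 ± 0.08), with a median of 0.05.

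At day 10 none of the 3 GATA genes was called in the Quaking KO. Gata4 was at 179, 189 and 176 CPM against 146 to 159 CPM, with no overlap, and the difference of 0.20 had an adjusted p of 0.070. It was called with DESeq2 (0.21, adjusted p = 0.023), in a fit of all 27 libraries (0.23, adjusted p = 0.0014) and without wild-type replicate 1 (0.23, adjusted p = 0.034). Gata5 was at 14.8, 16.3 and 16.4 CPM against 14.1 to 14.9 CPM, a difference of 0.10 with a 95% interval of -0.03 to 0.23. Gata6 was at 141, 139 and 119 CPM against 113 to 142 CPM, a difference of 0.01 with an interval of -0.15 to 0.18, whose sign turned when single libraries were left out (-0.073 to 0.080).

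Sox7 was spread widely in the Quaking KO at day 10, at 8.91, 11.8 and 16.0 CPM against 15.5 to 19.6 CPM in wild type. The lines overlapped, and the difference of -0.49 ± 0.19 had an adjusted p of 0.13. It was called with no filter on low counts (-0.48, adjusted p = 0.038), with all 27 libraries in 1 fit (-0.47, adjusted p = 0.010) and without Quaking KO replicate 3 (-0.74, adjusted p = 0.016), which alone reached the wild-type range. Hnf4a was the factor called, at 18.7, 22.4 and 22.3 CPM against 32.6 to 39.1 CPM, 1.77-fold lower (-0.83 ± 0.09, adjusted p = 0.0005).

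The gene lists at day 10 divided in the same comparison. Of 23 tested visceral endoderm genes 16 were lower and none higher in the Quaking KO, with a median of -0.70 against -0.02 over all genes. Dab2 was at 123 ± 5.32 against 204 ± 27 CPM, and the serum protease Habp2 at 15.1 ± 1.86 against 24.2 ± 1.81 CPM. Primitive endoderm genes were lower in 4 of 15 cases and parietal endoderm genes in 1 of 17, with 1 higher in each. Of 9 tested liver-enriched factors, Foxa3 was among those lower (-0.74 ± 0.13). Cardiac genes were lower in 14 of 22 cases with 1 higher (median -0.80): the sarcomere genes Actn2, at 3.96 ± 1.06 against 23.0 ± 3.91 CPM, and Myh6, at 86.2 ± 33.3 against 364 ± 11.1 CPM, stood far apart from wild type, whereas the heart factors Gata4, Gata5 and Gata6 did not pass the test. The summed cardiac level was 750 to 1224 CPM against 1877 to 2015 CPM, and its part in the levels of the GATA genes was not tested.

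**Figure D2:**
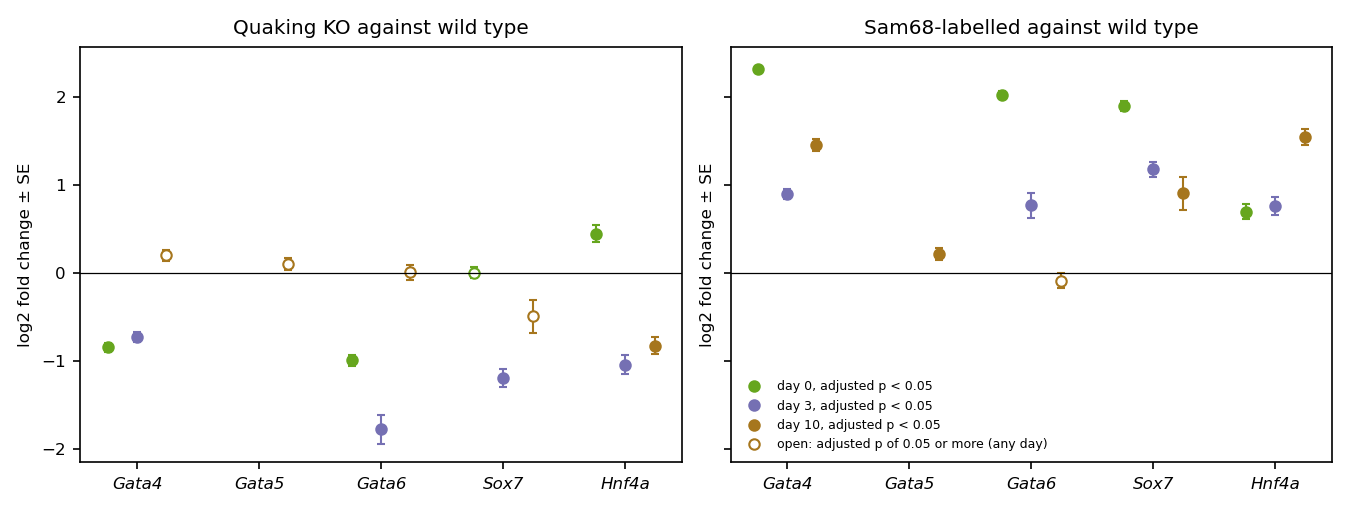
Log2 fold change against wild type with its SE for each factor, Quaking KO on the left and Sam68-labelled on the right, at days 0, 3 and 10; filled points have an adjusted p under 0.05 and Gata5 was tested at day 10 only. In the Quaking KO the 4 factors tested at day 3 lie below 0, and in the Sam68-labelled line the 4 factors tested at days 0 and 3 lie above 0.

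Gata4, Sox7 and Hnf4a were higher in the Sam68-labelled libraries than in wild type at each day, and Gata6 was higher at days 0 and 3. Gata5 had too few counts to be tested at days 0 and 3. Of the 4 tested factors 4 were higher at day 0, where 74.4% of all genes were called, 36.5% higher and 37.9% lower. The same count held at day 3, where 73.1% of genes were called, 36% higher and 37.1% lower. At day 10, 4 of 5 were higher, where 50.6% of genes were called, 22.8% higher and 27.8% lower. The share of genes called was high throughout, and these comparisons use the same wild-type libraries as those of the Quaking KO.

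At day 0 Gata4 was at 68.3, 72.0 and 68.2 CPM in the Sam68-labelled libraries against 14.6 to 14.7 CPM in wild type, 4.98-fold higher (2.32 ± 0.04, adjusted p = 2.2e-18). Gata6 was at 34.6, 33.8 and 33.3 CPM against 8.43 to 9.23 CPM, 4.07-fold higher (2.03 ± 0.05, adjusted p = 9.9e-17). Sox7 was at 41.0, 38.4 and 36.3 CPM against 10.4 to 11.5 CPM, 3.74-fold higher (1.90 ± 0.06, adjusted p = 1.6e-15). All of these were far outside the wild-type spread. Hnf4a differed less, at 4.56, 5.11 and 4.40 CPM against 2.86 to 3.25 CPM, 1.63-fold higher (0.70 ± 0.09, adjusted p = 1.1e-06). Gata5 had 3 counts in all, 1 library having none, against 10 in wild type.

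Primitive endoderm genes accompanied them at day 0: 13 of 15 were higher and none lower, with a median of 1.67 against -0.01 over all genes. Cubn was at 219 ± 3.2 against 38.6 ± 3.15 CPM and Dab2 at 55.2 ± 0.705 against 10.5 ± 0.229 CPM. Parietal endoderm genes were higher in 14 of 17 cases (median 1.04), with Lama1 at 1279 ± 45.0 against 375 ± 22.8 CPM. Visceral endoderm genes were higher in 10 and lower in 5 of 17. Sox17 (2.28 ± 0.09) and Foxa2 (2.23 ± 0.10) were higher, while Foxa3 (-0.43 ± 0.11) was lower. Of the 11 pluripotency factors 6 were lower and 3 higher, and their sum was 3023 to 3052 CPM against 3790 to 3997 CPM in wild type; its part in the levels of the 4 factors was not tested. Of 13 FGF and ERK genes 3 were higher and 6 lower, led by Spry2 (0.48 ± 0.03) and Dusp6 (-0.64 ± 0.03). The median of this list was -0.06, and 36.5% of all genes were called higher and 37.9% lower.

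At day 3 the 4 factors were again higher in the Sam68-labelled libraries. Gata4 was at 46.9, 45.7 and 42.2 CPM against 22.7 to 25.3 CPM, 1.86-fold higher (0.90 ± 0.05, adjusted p = 1.4e-09). Gata6 was at 15.4, 14.1 and 12.8 CPM against 6.25 to 10.5 CPM, 1.71-fold higher (0.77 ± 0.14, adjusted p = 0.00012). No library overlapped with wild type in either gene. Sox7 was at 12.1, 12.3 and 10.6 CPM against 4.92 to 5.51 CPM, 2.27-fold higher (1.18 ± 0.09, adjusted p = 1.2e-08). Hnf4a was at 7.35, 8.0 and 6.90 CPM against 3.90 to 4.86 CPM, 1.70-fold higher (0.76 ± 0.10, adjusted p = 4.8e-06). Gata5 had 19 counts in all.

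The day 3 lists parted by tissue in the Sam68-labelled line. Of 15 primitive endoderm genes 14 were higher and 1, the Wnt inhibitor Dkk1, was lower (-0.77 ± 0.10), with a median of 0.77 against 0.00 over all genes. Cubn was at 734 ± 43.1 against 199 ± 10.5 CPM and Lama1 at 412 ± 31.1 against 108 ± 1.26 CPM. Parietal endoderm genes were higher in 11 and lower in 5 of 17, the lower ones including the activin inhibitor Fst (-2.91 ± 0.19). Visceral endoderm genes were higher in 9 and lower in 4 of 21, where 36% of all genes were called higher and 37.1% lower. Their median was 0.01, so this list as a whole did not shift. Definitive endoderm, the gut lineage of the embryo proper, moved opposite to primitive endoderm: 9 of 12 genes were lower and 1 higher (median -1.32), with Eomes at 72.2 ± 15.6 against 292 ± 42.9 CPM and Gsc at 1.83 ± 0.380 against 14.4 ± 3.2 CPM. Foxa2, which is used in both endoderm lineages, was lower here (-1.98 ± 0.16) and had been higher at day 0.

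At day 10 Gata4 was at 429, 464 and 423 CPM in the Sam68-labelled libraries against 146 to 159 CPM in wild type, 2.75-fold higher (1.46 ± 0.07, adjusted p = 6.4e-08). Hnf4a was at 114, 114 and 106 CPM against 32.6 to 39.1 CPM, 2.93-fold higher (1.55 ± 0.09, adjusted p = 4.3e-07). Sox7 was at 28.3, 36.1 and 34.1 CPM against 15.5 to 19.6 CPM, 1.88-fold higher (0.91 ± 0.19, adjusted p = 0.0018). None of these overlapped with wild type. Gata5 was at 17.4, 17.2 and 17.7 CPM against 14.1 to 14.9 CPM, 1.16-fold higher (0.21 ± 0.07, adjusted p = 0.022), but the call was lost with no filter on low counts (0.23, adjusted p = 0.050), with library totals (0.14, adjusted p = 0.11) and with replicate numbers as a block on the 6 libraries compared (0.21, adjusted p = 0.066). It was also lost without wild-type replicate 3 (0.21, adjusted p = 0.053).

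Gata6 was at 123, 126 and 129 CPM in the Sam68-labelled libraries at day 10, inside the wild-type span of 113 to 142 CPM. The difference of -0.09 had a 95% interval of -0.25 to 0.08 and an adjusted p of 0.42. Without wild-type replicate 1, the lowest, it was -0.17 with an adjusted p of 0.047, and without wild-type replicate 3 it was 0.0028.

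The endoderm lists of the extraembryonic lineage and the cardiac list were mostly higher in the Sam68-labelled line at day 10, and the definitive endoderm and endothelial lists mostly lower. Primitive endoderm genes were higher in 11 and lower in 2 of 15, with a median of 1.05 against -0.04 over all genes; Sparc, a matrix glycoprotein, was at 2946 ± 189 against 1226 ± 159 CPM. Visceral endoderm genes were higher in 17 and lower in 3 of 23 (median 0.78): Habp2 was at 80.9 ± 5.0 against 24.2 ± 1.81 CPM and the hedgehog ligand Ihh at 45.1 ± 4.30 against 12.6 ± 0.192 CPM, while the fetal serum protein Afp was lower at 126 ± 31.5 against 221 ± 7.45 CPM. Parietal endoderm genes were higher in 12 and lower in 1 of 17 (median 1.03). Cardiac genes were also higher, in 16 of 22 cases with 3 lower (median 0.98), such as Tnnt2 at 282 ± 10.8 against 81.5 ± 15.4 CPM. The summed cardiac level was 3877 to 4221 CPM against 1877 to 2015 CPM, and its part in the higher Gata4 was not tested. Definitive endoderm genes were lower in 7 and higher in 2 of 13 (median -0.60), and of 5 GATA relatives and FOG cofactors 4 were lower, such as Zfpm2 (-1.09 ± 0.13), and 1 was higher, Zfpm1 (0.41 ± 0.06). Endothelial genes were lower in 11 and higher in 3 of 18 (median -0.58), with the receptor Kdr at 68.1 ± 2.55 against 136 ± 4.70 CPM, whereas Sox7 and Sox17 (1.32 ± 0.14) were higher and their relative Sox18 was lower (-0.56 ± 0.15).

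**Figure D3:**
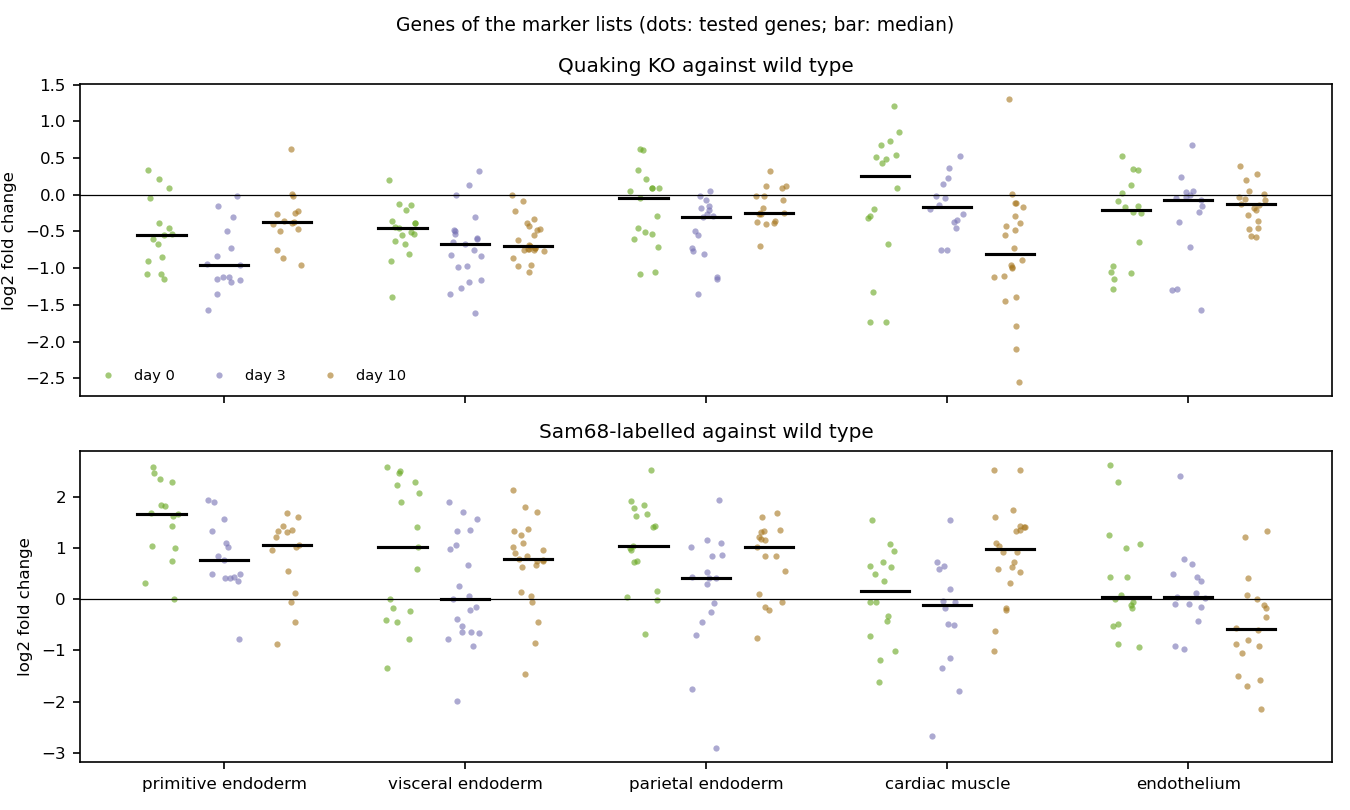
Log2 fold change against wild type of the tested genes of 5 marker lists at days 0, 3 and 10, Quaking KO above and Sam68-labelled below; each dot is 1 gene and each bar the median. The primitive endoderm medians lie below 0 in the Quaking KO (-0.96 at day 3) and above 0 in the Sam68-labelled line (1.67 at day 0), and the cardiac medians part at day 10, at -0.80 and 0.98.

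Set directly against the Quaking KO, the Sam68-labelled line was higher in the 4 tested factors at day 0, where 75.9% of genes were called (38.9% higher and 37% lower), and at day 3, where 72.1% were (35.3% higher and 36.8% lower). Gata4 was 8.92-fold and Gata6 8.09-fold higher at day 0 (3.16 ± 0.04 and 3.02 ± 0.06, adjusted p = 9.4e-20 and 1.9e-18). At day 3 Gata6 was 5.84-fold and Sox7 5.19-fold higher (2.55 ± 0.16 and 2.38 ± 0.10, adjusted p = 1.8e-09 and 2.0e-11). Hnf4a differed by 0.25 ± 0.09 at day 0 (adjusted p = 0.013), a call lost with DESeq2 (0.21, adjusted p = 0.11), with all 27 libraries in 1 fit (0.16, adjusted p = 0.17), without Sam68-labelled replicate 2 (0.18, adjusted p = 0.088) and without Quaking KO replicate 1 (0.21, adjusted p = 0.053). At day 10, 3 of 5 were called, all higher, where 56.6% of genes were called (25.9% higher and 30.7% lower): Hnf4a by 5.19-fold, Sox7 by 2.64-fold and Gata4 by 2.39-fold. Gata5 (0.11, 95% interval -0.02 to 0.25) and Gata6 (-0.10, interval -0.26 to 0.07) did not pass.

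Between days, the path from day 0 to day 3 differed by line. In the Quaking KO, Gata4 rose by 0.85 ± 0.05 while Gata6 fell by 0.85, Sox7 by 2.26 and Hnf4a by 0.95, with adjusted p from 5.6e-09 to 9.9e-06; 4 of 5 factors were called, where 69% of genes were (34.2% higher and 34.8% lower). In the Sam68-labelled line Gata4 fell by 0.63, Gata6 by 1.27 and Sox7 by 1.73, and Hnf4a rose by 0.65 ± 0.07. These 4 factors and Gata5 were called, where 72.9% of genes were (37% higher and 35.9% lower). Gata5 passed the filter on low counts in this fit only through its day 10 libraries. Its rise by 2.44 ± 0.61 rests on 3 against 19 counts and was 3.33 without replicate 3 of day 0, so the call says little about Gata5. From day 3 to day 10 all 5 rose in both lines, where 78.1% of genes were called in the Quaking KO (41.1% higher and 37% lower) and 86% in the Sam68-labelled line (43.5% higher and 42.5% lower). In both lines Gata5 was in the fit only through its day 10 libraries, so its calls as higher add no support. Gata6 rose 56.2-fold in the Quaking KO, from the lowest level of the series, against 15.7-fold in wild type and 9.04-fold in the Sam68-labelled line. Hnf4a rose 10.1-fold, 8.39-fold and 15.1-fold in the same order.

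Over the whole course Gata5 rose from near silence in each line, and the change of Sox7 differed in sign between lines. The ratio of Gata5 at day 10 to day 0 was 389 in the Quaking KO (95% counting interval 189 to 969) and 1071 in the Sam68-labelled line (366 to 5195), the latter against 3 counts at day 0; its fitted change of 9.92 ± 0.20 was 10.80 without Sam68-labelled replicate 3 of day 0. Sox7, which stood higher at day 10 than at day 0 in wild type (0.67 ± 0.09), differed by 0.21 in the Quaking KO (95% interval -0.11 to 0.54). That change was called with library totals (0.44, adjusted p = 0.017) and without Quaking KO replicate 1 of day 10 (0.41, adjusted p = 0.0060), and turned sign without replicate 3 of day 10 (-0.040). In the Sam68-labelled line Sox7 was lower at day 10 than at day 0 (-0.23 ± 0.07, adjusted p = 0.0091), a call lost with all 27 libraries in 1 fit (-0.23, adjusted p = 0.087) and without replicate 1 of day 0 (-0.18, adjusted p = 0.056) or of day 10 (-0.12, adjusted p = 0.073). From day 0 to day 10, 4 of 5 factors were called in the Quaking KO, where 83.5% of genes were (43.1% higher and 40.5% lower), and 5 of 5 in the Sam68-labelled line, where 88.1% were (45% higher and 43.1% lower). These counts include Gata5, which passed the filter on low counts only through its day 10 libraries.

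Tests of the difference itself placed these line effects in time. From day 0 to day 3 the difference of the Quaking KO from wild type became more negative for Gata6 (-0.79 ± 0.21, adjusted p = 0.014), Sox7 (-1.21 ± 0.12, adjusted p = 1.9e-06) and Hnf4a (-1.49 ± 0.15, adjusted p = 1.7e-06). These were 3 of 4 tested factors, where 15.9% of genes were called, 9.45% higher and 6.45% lower. For Gata4 the change was 0.11 with a 95% interval of -0.05 to 0.27. From day 3 to day 10 the difference closed for Gata4 (0.94 ± 0.09, adjusted p = 0.0001) and Gata6 (1.80 ± 0.22, adjusted p = 0.00076), 2 of 5 factors, where 3.58% of genes were called, 2.03% higher and 1.55% lower. It did not pass for Hnf4a (0.23, interval -0.09 to 0.55). For Sox7 it was 0.72 ± 0.25 with an adjusted p of 0.14, and was called with no filter on low counts (0.73, adjusted p = 0.0016), DESeq2 (0.74, adjusted p = 0.048), all 27 libraries in 1 fit (0.73, adjusted p = 0.029) and without Quaking KO replicate 1 of day 10 (0.91, adjusted p = 0.022). Gata5 entered the day 3 to day 10 fit only through its day 10 libraries. Its change of -0.59 (interval -1.52 to 0.34) rests on 15 against 9 counts at day 3 and says little.

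In the Sam68-labelled line the excess over wild type shrank from day 0 to day 3 for Gata4 (-1.40 ± 0.07, adjusted p = 4.4e-12), Gata6 (-1.24 ± 0.15, adjusted p = 2.3e-06) and Sox7 (-0.70 ± 0.10, adjusted p = 1.1e-05). These were 3 of 4 tested factors, where 33.8% of genes were called, 18% higher and 15.9% lower. From day 3 to day 10 it grew for Gata4 (0.64 ± 0.09, adjusted p = 5.4e-05) and Hnf4a (0.87 ± 0.13, adjusted p = 7.2e-05) and shrank for Gata6 (-0.78 ± 0.19, adjusted p = 0.0028), 3 of 5 factors, where 54.2% of genes were called, 30.3% higher and 23.9% lower. Sox7 did not pass (-0.19, 95% interval -0.49 to 0.11), except with library totals (-0.43, adjusted p = 0.033). Gata5 entered the day 3 to day 10 fit only through its day 10 libraries. Its change of -0.80 (interval -1.65 to 0.04) rests on 19 against 9 counts at day 3 and says little.

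Levels of different genes can be set side by side per kilobase, here CPM per kb of the longest coding transcript. In wild type the order at day 0 was Gata4 (4.32), Sox7 (3.29), Gata6 (2.71), Hnf4a (0.697) and Gata5 (0.0167), with no overlap between neighbours. At day 10 it was Gata4 (45.6), Gata6 (40.2), Hnf4a (8.45), Sox7 (5.13) and Gata5 (4.44), where Gata4 and Gata6 overlapped. With all annotated exons as length they stood apart at day 10, Gata4 at 39.7 and Gata6 at 20.0, so their closeness rests on the length used. The Quaking KO differed at day 0, with Sox7 (3.34) above Gata4 (2.43) and no overlap between them.

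Across groups each factor had its own order. Gata4 ran from 439 ± 22.3 CPM in the Sam68-labelled line at day 10 down to 8.27 ± 0.383 CPM in the Quaking KO at day 0, and of the neighbouring groups only Quaking KO day 3 and wild-type day 0 overlapped. Gata6 was highest in the 3 day 10 groups, which overlapped, and lowest in the Quaking KO at day 3 (2.43 ± 0.397 CPM). Sox7 was highest at day 0 in the Sam68-labelled line (38.5 ± 2.34 CPM), above every day 10 group, and lowest in the Quaking KO at day 3 (2.27 ± 0.235 CPM). Hnf4a ran from 111.3 ± 4.19 CPM in the Sam68-labelled line at day 10 to 2.14 ± 0.209 CPM in the Quaking KO at day 3.

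The make-up of the GATA pool, the summed CPM per kb of Gata4, Gata5 and Gata6, shifted with line and day. Gata4 made up 61.3% ± 1.05 of it in wild type at day 0, 73.7% ± 4.19 at day 3 and 50.6% ± 3.55 at day 10. In the Quaking KO the shares were 63.7% ± 0.31, 84.9% ± 2.2 and 53.7% ± 1.52, and in the Sam68-labelled line 66.1% ± 0.86, 75.1% ± 0.85 and 74.4% ± 1.1. Gata5 reached 4.93% ± 0.26 in wild type at day 10 and 3.07% ± 0.15 in the Sam68-labelled line. The share of Gata6 rests on the length used: at day 10 in wild type it was 44.5% with the coding transcript and 31.1% with all annotated exons.

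The ratio of Gata4 to Gata6 compares the lines independently of that length. At day 3 it was 4.90 to 7.11 in the Quaking KO against 2.26 to 3.45 in wild type, a geometric mean 2.05 times as high. At day 10 it was 3.11 to 3.5 in the Sam68-labelled line against 0.98 to 1.34, 2.91 times as high. The libraries did not overlap in either case, nor at day 0, where the Quaking KO was 1.11 and the Sam68-labelled line 1.22 times as high as wild type. An exact two-sided permutation test gave p = 0.1 for each of these 4, the smallest that 3 against 3 libraries allow, or 0.15 adjusted over the 6 comparisons made. The other pairs overlapped, with exact permutation p of 0.8 for the Sam68-labelled line at day 3 and 0.3 for the Quaking KO at day 10.

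**Figure D4:**
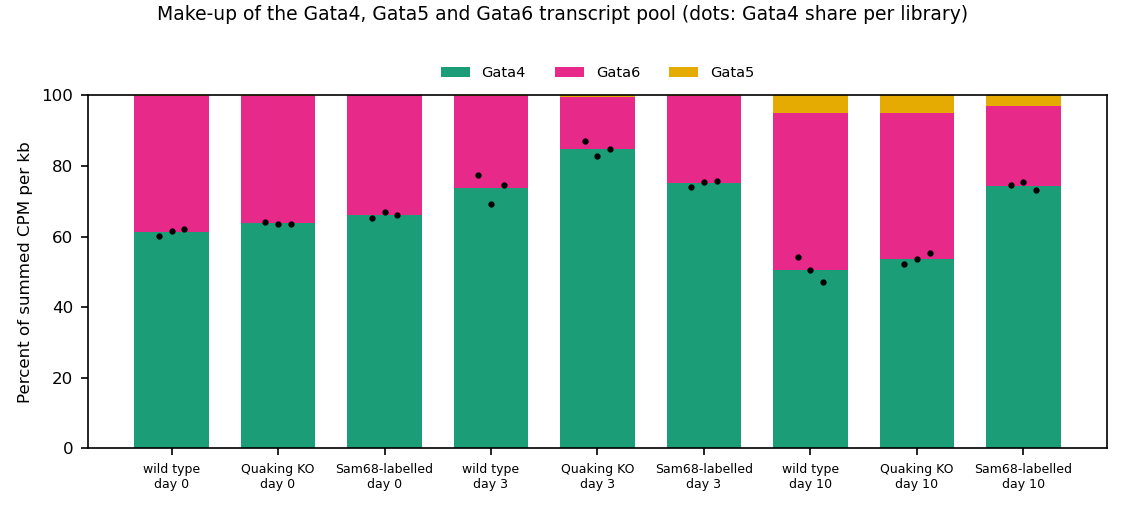
Share of Gata4, Gata6 and Gata5 in their summed CPM per kb, in percent, for each line and day; bars are means of 3 libraries and dots the Gata4 share of each library. The Gata4 share is highest in the Quaking KO at day 3 (84.9%), and at day 10 it is 74.4% in the Sam68-labelled line against 50.6% in wild type.

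Each factor was compared with 12882 genes for the likeness of its profile, as Pearson r of log2(CPM + 0.5) over the 27 libraries, which share lines and days and so give a description only. Gata4 was most like Pth1r, a receptor of parietal endoderm (r = 0.9938), followed by Ubash3b (0.9859) and Nxf7 (0.9825). Gata6 was most like Pdgfra, the growth factor receptor of primitive endoderm and mesoderm (0.9839), then Chn2 (0.9801) and the endothelial cadherin Cdh5 (0.9791). Pdgfra stood at 322 ± 5.36, 329 ± 20.1 and 361 ± 29.2 CPM at day 10 in wild type, Quaking KO and Sam68-labelled libraries, groups as close as those of Gata6.

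The nearest profiles to Gata5 were Colec11 (r = 0.9986) and the heart factors Hand2 (0.9984) and Tbx5 (0.9978), all at or near 0 until day 3. Sox7 was closest to Lama1 (0.9881), a chain of the basement membrane laminin that was also high at day 0 in the Sam68-labelled line, and less to Pdzd3 (0.9430) and Nrg2 (0.9424). Hnf4a was closest to the peptidase Dpp4 (0.9923), Il22ra1 (0.9872) and Soat2 (0.9868), a cholesterol esterifying enzyme. Dpp4 averaged 124, 72.8 and 431 CPM at day 10 in wild type, Quaking KO and Sam68-labelled libraries. Among the factors themselves r was 0.9453 for Gata4 with Gata6, 0.9122 for Gata4 with Hnf4a, 0.6288 for Gata4 with Sox7 and 0.3981 for Gata5 with Sox7.

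Gata4 and Sox7 lie on the same chromosome, and genes around them were read for a shared shift. In the Sam68-labelled line the coding genes within 2 Mb of Sox7 had a median log2 fold change of 0.30 at day 0, 0.32 at day 3 and 0.38 at day 10, against 0.09, 0.07 and 0.20 over chromosome 14. Around Gata4 the medians were 0.08, 0.21 and 0.24. The windows of Gata4 and Sox7 overlap and share genes, so their medians are not separate results. Single neighbours ranged widely: the highest within 2 Mb of Sox7 was at 2.30 at day 0, 2.20 at day 3 and 1.73 at day 10, above Sox7 itself (1.90, 1.18 and 0.91). Around Gata4 the highest neighbour was at 1.64, 1.62 and 1.09, against 2.32, 0.90 and 1.46 for Gata4. In the Quaking KO the neighbour medians at days 0, 3 and 10 were 0.15, 0.08 and 0.07 around Gata4. Around Sox7 they were 0.16, 0.08 and 0.15 in that line.

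The Quaking protein is known to bind ACTAAC in RNA. No such word occurred in the annotated 3′ untranslated regions of the 5 factors, which are 2819 bases long in Hnf4a, 2073 in Sox7, 1732 in Gata5, 1453 in Gata4 and 1153 in Gata6. Among other genes with at least as long a region, the same length held the word in 35.8%, 27.7%, 23.5%, 20.1% and 16.0% of cases in that order. The search covers these letters in that window only. Gata6 (ENSMUSG00000005836) lies at chr18:11052064-11085635 on the plus strand, and the opposite-strand transcript 1010001N08Rik shares 1.43% of its exon bases and had 2 to 832 counts per library. Of the 50-base windows of each gene's transcripts, none of Gata4 or Hnf4a, 0.06% of Sox7, 0.68% of Gata6 and 5.05% of Gata5 occurred in another gene, which for Gata5 was its antisense partner.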

How the data were processed

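The values deposited by the authors are unnormalised counts of reads for each gene of each library. Per the submitters' processing notes, bcl2fastq 2.17.1.14 and STAR 2.5.3a were used with build GRCm38. Per the labels' protocols, ribosomal RNA was depleted, the kit was stranded and reads were paired, 125 bases each. Not given in the sources used here are the counting program, its strandedness and the gene models. Gene identifiers were matched without version to GENCODE mouse release 21, which held 99.6% of them.

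Genes were kept by filterByExpr (minimum count 10, minimum total 15) and tested with edgeR 4.0.16 (limma 3.58.1, R 4.3.3), with TMM scaling. Each day was fitted on 9 libraries, each time course on 9 and each interaction on 12. In the time courses and the day 3 to day 10 interactions Gata5 passed the filter only through its day 10 libraries. Intervals are the log2 fold change ± 1.96 SE. The p-values measure the spread between replicates within a group of line and day, estimated jointly over all groups of a fit. With 1 line per knockout they do not measure a spread between lines of a genotype. The steps were tested on simulated data.

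Alternatives were no filter, RLE scaling, library totals, DESeq2 1.42.0, all 27 libraries in 1 fit, the compared libraries alone, the replicate number as a block, and each library left out. Same-numbered libraries deviated together in the Quaking KO and wild type at day 3 (correlation of 0.17 to 0.54 in every pair). Among all pairs of groups examined, this was the only one with every such correlation over 0.1. The best match had the same number for 2 of its Quaking KO libraries, so whether the numbers pair the libraries is not settled.

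The members, lists and tests were chosen with earlier results of these data known. The members are named with every value. Of each list, at most 2 called genes per direction with the smallest p are named in a comparison, and for likeness the 3 coding genes with the highest r and a mean of at least 1 CPM. The ratio of Gata4 to Gata6 was tested, and the longest coding transcript taken as gene length, after the values were seen. Some results are not reported here.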

Additional observations from a re-analysis of the deposited data

Results flagged for a closer look

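In 11 cases the difference of a line from wild type changed between 2 days by the test of that change itself, edgeR's quasi-likelihood test on 12 libraries. For the Quaking KO from day 0 to day 3 these were Gata6 (-0.79 on the log2 scale), Sox7 (-1.21) and Hnf4a (-1.49), and from day 3 to day 10 Gata4 (0.94) and Gata6 (1.80). For Hnf4a the difference was called on both days with opposite signs, 0.45 at day 0 and -1.04 at day 3. For the Sam68-labelled line from day 0 to day 3 they were Gata4 (-1.40), Gata6 (-1.24) and Sox7 (-0.70). From day 3 to day 10 they were Gata4 (0.64), Gata6 (-0.78) and Hnf4a (0.87), so that the differences of Gata4 and Gata6 from wild type moved in opposite directions in the same libraries. Among all genes, 15.9% were called for the Quaking KO from day 0 to day 3 and 3.58% from day 3 to day 10. For the Sam68-labelled line the shares were 33.8% and 54.2%, so high that the calls alone say little about the factors.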

How the results depend on the processing

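Of the fold changes of the 5 factors, 673 values under other settings kept their direction and their side of the threshold, 2 turned direction, 9 gained a call and 6 lost it. With 1 library left out 696 kept both, 14 turned, 5 gained a call and 5 lost it. The count of factors called in the Quaking KO at day 10 went from 1 to 2 with no filter on low counts, 2 with DESeq2 and 3 with all 27 libraries in 1 fit, and was 1 to 2 with 1 library left out. Directions turned, in changes that were not called, with library totals for Sox7 in the Quaking KO at day 0 (-0.022) and Gata6 in wild type from day 0 to day 3 (0.052). With 1 library left out the ranges across 0 were -0.031 to 0.058 for Sox7 in the Quaking KO at day 0, -0.073 to 0.080 for Gata6 in the Quaking KO and -0.17 to 0.0028 for Gata6 in the Sam68-labelled line at day 10. In wild type from day 0 to day 3 they were -0.25 to 0.12 for Gata6 and -0.79 to 0.45 for Gata5; for Sox7 in the Quaking KO from day 0 to day 10, -0.040 to 0.41; and for the day 0 to day 3 change of Hnf4a in the Sam68-labelled line, -0.0100 to 0.16. The cause was not tested.

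With the replicate block the value for Gata4 in the Quaking KO at day 0 was -0.84, and no call of the 5 factors changed except Gata5 in the Sam68-labelled line at day 10, with the block on the 6 libraries compared (adjusted p = 0.066). Over all genes, calls in the Quaking KO at day 3 went from 1381 to 2433 with the block on 6 libraries, and to 749 and 801 without wild-type replicates 2 and 3. At day 10 they went from 2392 to 4863 with all 27 libraries, 1531 with that block and 1399 without Quaking KO replicate 2. Calls of a changed Quaking KO difference from day 3 to day 10 went from 753 to 1338 with no filter, 1131 with DESeq2, 2047 with all 27 libraries and 370 to 464 in 5 of the fits without 1 library.

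Gata5 before day 10 rests on 3 to 19 counts a group, so differences between lines within day 0 or day 3 were not tested. Changes of its line differences from day 3 to day 10 were fitted but rest on the same few counts. Using all annotated exons as gene length, chosen after seeing the data, moved the Gata6 share of the GATA pool and no comparison of lines within a gene.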
